A study of Mus musculus with 4 samples.

Results

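The integrated stress response effectors described here are 10 genes, Atf4, Atf5, Ddit3, Trib3, Asns, Chac1, Sesn2, Psat1, Phgdh and Psph, chosen by name among the 47445 gene identifiers of each expression table. Each of the 10 was found in every table under 1 identifier. The embryos were late 2-cell embryos of C57BL/6N mice, and the comparison is of 2 control libraries with 2 libraries made after injection of siRNA directed at Uqcc3, whose product helps to assemble complex III of the respiratory chain. Per the labels' protocols the dams were 8 weeks old, both groups were injected at 8 hpi with 5 µM siRNA, and the siRNA of the control group was a negative control. The controls nevertheless carry the treatment label "none", so it is unsettled whether they were injected. Embryos were collected only where their morphology was normal, and how many embryos a library holds is not stated. Separate mice or injection days are nowhere named for the libraries of a group, so p-values measure only the spread among the 4 libraries, which may be technical.

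The integrated stress response is a pathway in which kinases that sense viral RNA, unfolded proteins, uncharged tRNA or mitochondrial and heme stress phosphorylate the translation factor eIF2 on its alpha subunit. General translation then falls, while the mRNA of the transcription factor ATF4 is translated more, because of short open reading frames ahead of its coding sequence. ATF4, often with CHOP (the product of Ddit3) or C/EBP factors, raises the transcripts of amino acid transporters, biosynthetic enzymes, tRNA synthetases and feedback regulators. Respiratory chain defects are known to engage this pathway in several mammalian tissues. The values below are RNA levels, so they hold no measure of eIF2 phosphorylation or of ATF4 protein.

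Paired values are given in the order of the replicates. Values are in FPKM, which scales fragments to the length of the transcript and the depth of the library, and differences are on the log2(FPKM + 1) scale, which understates changes of genes with low values. Fragment numbers were implied from the bounds that the tables give with each value. The implied depth was 16200000 and 18200000 fragments in the 2 control libraries and 11200000 and 11600000 in the 2 siRNA libraries. Uqcc3 itself stood at 147 and 211 FPKM in the control pair and 23.7 and 19.8 FPKM in the siRNA pair. The library of siRNA replicate 2 stood apart. Across genes, the correlation of its log2 values with any other library was 0.624 to 0.651, whereas each other library reached 0.872 or 0.875 with its closest. It held 9771 genes at 1 FPKM or more against 11818 to 12202 in the others. The 18S ribosomal gene Rn18s-rs5 was at 14510 FPKM there against 183 to 1023 FPKM in the others. In siRNA replicate 2 the median difference of genes from the control mean also moved with transcript length, from -1.47 over genes with a longest transcript under 1000 bases to 0.22 over genes of at least 4000 bases. In siRNA replicate 1 the same medians were -0.31 and -0.24. The share of summed FPKM from mitochondrially encoded mRNAs was 3.41% in siRNA replicate 2 but 17.9% in siRNA replicate 1, on either side of the 9.98% and 11.8% of the controls. The effectors and the gene lists are therefore described for both siRNA libraries together and for each alone.

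Most markers of the labelled stage were detected in all libraries. The 11 maternal oocyte transcripts were above 0 in every library and summed to 11877 and 14149 FPKM in the control pair and 10051 and 4376 FPKM in the siRNA pair. Dppa3 and Oosp1 made up most of these sums. Of the 11, 7 lay above both controls in siRNA replicate 2, and their median difference there was 0.64, so most of them went the other way from the sum. The 11 genes specific to the 2-cell stage summed to 1386 and 1838 FPKM in the control pair and 994 and 554 FPKM in the siRNA pair. Of these 11, Usp17le was listed at 0 in both siRNA libraries, at 2.22 and 6.54 FPKM in the controls, and Zscan4f was at 0.140 FPKM in siRNA replicate 2. Of 12 cumulus and granulosa markers, 8 and 10 were listed at 0 in the controls and 4 and 9 in the siRNA libraries, with sums from 1.26 to 14.1 FPKM and Star, Amh and Fshr at 0 in all 4. Of 8 blood markers 3 or 4 were at 0, with sums of 34.5 to 36.0 FPKM in 3 libraries and 9.52 FPKM in siRNA replicate 2. Of 9 sperm markers 3 to 6 were at 0 (sums 22.6 to 47.1 FPKM), and of 10 blastocyst markers 4 or 5 (sums 4.42 to 12.9 FPKM). The part of these markers in the effector values was not tested.

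The effectors did not change as 1 block. Atf4, Trib3 and Sesn2 were high in siRNA replicate 2 and within or below the range of the controls in siRNA replicate 1. Psph, the last enzyme of serine synthesis, had lower values in the siRNA pair than in the control pair, without overlap. The same held for 30.0% of all genes tested. Ddit3 varied as much between the controls as between the groups, and Asns, Chac1 and Atf5 were near the bottom of the measured range in most libraries. None of the 7 effectors that could be tested passed an adjusted p of 0.05 in limma, as none of the 12390 genes tested did (0%, smallest adjusted p = 0.564). At an unadjusted p under 0.05 limma gave 1 effector, Psph, beside 738 of all genes (5.96%). In RNA from whole embryos, fewer cells with a transcript and less of it per cell cannot be told apart.

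**Figure D1:**
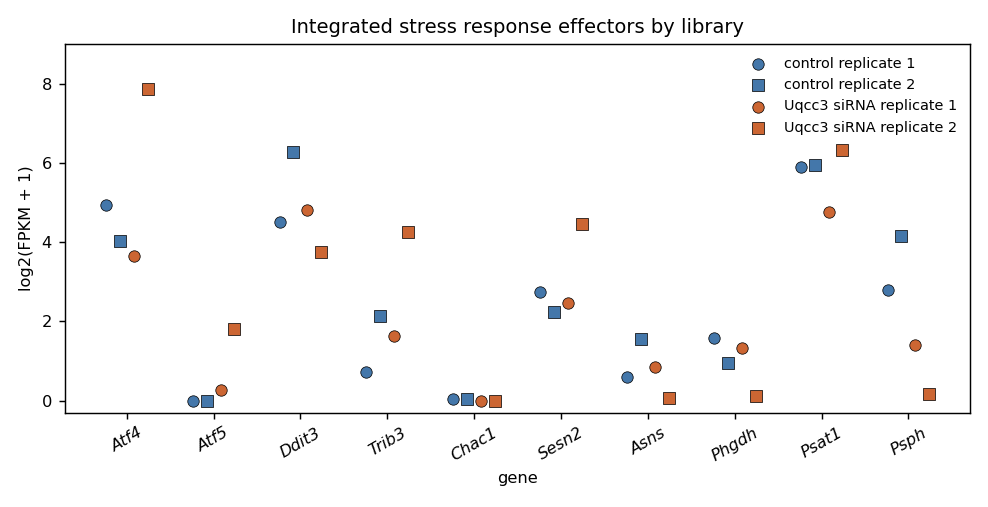
Expression of the 10 effectors in each library, as log2(FPKM + 1) on the vertical axis, with the genes along the horizontal axis. Blue points are the 2 controls and orange points the 2 Uqcc3 siRNA libraries, with circles for replicate 1 and squares for replicate 2. The orange square of Atf4 (234 FPKM) lies far above its other points (11.5 to 29.8 FPKM), and both orange points of Psph lie below both blue ones.

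Atf4 (ENSMUSG00000042406.7), on chromosome 15 from 80255184 to 80257540 on the plus strand in mm10, encodes the bZIP transcription factor at the centre of the response. Its level was 29.8 and 15.3 FPKM in control replicates 1 and 2, and 11.5 and 234 FPKM in siRNA replicates 1 and 2, from about 834, 485, 218 and 4661 implied fragments. The lowest of the 4 was siRNA replicate 1, below both controls, and siRNA replicate 2 was 7.85 times the higher control. The control mean was 22.6 ± 10.3 FPKM (SD, n = 2) and the siRNA mean 123 ± 157 FPKM (SD, n = 2). The log2 difference was 1.27 (SE 1.28), which is no larger than its error (limma adjusted p = 0.823).

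The 2 siRNA libraries went opposite ways for Atf4. Against the control mean, siRNA replicate 1 gave a log2 difference of -0.85 and siRNA replicate 2 one of 3.39. In siRNA replicate 2 only 157 of the 12390 tested genes (1.27%) lay further above the controls. In siRNA replicate 1 9139 genes (73.8%) had a higher difference than Atf4. When siRNA replicate 1 was left out and siRNA replicate 2 compared with the controls by itself, Atf4 was the single effector to pass in limma (log2 difference 3.39, SE 0.56, adjusted p = 0.0295). In that fit 1477 of 12390 genes passed (11.9%), of them 278 higher (2.24%) and 1199 lower (9.68%), and Atf4 ranked 663 by p. Without siRNA replicate 2 its difference was -0.85 (SE 0.64, limma adjusted p = 0.757), so the direction rests on siRNA replicate 2.

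Atf5 (ENSMUSG00000038539.15), on chromosome 7 from 44812256 to 44816658 on the minus strand, encodes a related bZIP factor that is translated in a similar way and acts on mitochondrial stress genes. It was listed at 0 in both controls and stood at 0.202 and 2.52 FPKM in siRNA replicates 1 and 2, from about 1.3 and 42 implied fragments. Only siRNA replicate 2 reached 1 FPKM, so the gene was not tested and no fold is given. The annotation places the start of Nup62 on the opposite strand across the start of Atf5. Nup62 was at 21.0 and 20.9 FPKM in the control pair and 19.1 and 92.6 FPKM in the siRNA pair, and the sources used here do not say that counting used strand.

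Ddit3 (ENSMUSG00000025408.15), on chromosome 10 from 127290774 to 127296288 on the plus strand, encodes CHOP, a bZIP factor induced downstream of ATF4 that is linked to cell death under lasting stress. Its level was 22.0 and 76.0 FPKM in the control pair and 26.9 and 12.5 FPKM in the siRNA pair, from 108 to 756 implied fragments. Control replicate 2 was the highest library and siRNA replicate 1 lay between the controls, so the groups overlapped. The log2 difference was -1.11 (SE 0.86, limma adjusted p = 0.780), while the controls differed from each other by 1.75. Without control replicate 2 the difference was -0.24, against -1.99 without control replicate 1. Its gene bounds overlap those of Mars, a methionyl-tRNA synthetase, which stood at 2.45 and 4.44 FPKM in the control pair and 1.99 and 35.6 FPKM in the siRNA pair. They also overlap those of Gm4189, at 0 FPKM in both controls and 2.32 and 14.3 FPKM in the siRNA pair. The longest annotated transcript of Ddit3 has 969 bases. Its difference in siRNA replicate 2 (-1.63) was close to the median of -1.47 over the 2220 tested genes under 1000 bases.

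Trib3 (ENSMUSG00000032715.9), on chromosome 2 from 152337422 to 152344032 on the minus strand, encodes a pseudokinase that is induced by ATF4 and CHOP and in turn restrains ATF4. The RNA stood at 0.641 and 3.43 FPKM in the control pair and 2.13 and 18.0 FPKM in the siRNA pair, from about 3.7, 95, 24 and 342 implied fragments. As with Atf4, siRNA replicate 2 lay above both controls, here at 5.24 times the higher one. Unlike Atf4, Trib3 fell within the controls in siRNA replicate 1. Over both siRNA libraries it differed by 1.51 on the log2 scale (SE 1.20, limma adjusted p = 0.785). Taken alone, siRNA replicate 1 gave 0.21 and siRNA replicate 2 gave 2.81, where 333 tested genes (2.69%) lay further above the controls. No p-value is given for a lone siRNA library, which holds no spread of its group.

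Sesn2 (ENSMUSG00000028893.8), on chromosome 4 from 132492032 to 132510501 on the minus strand, encodes sestrin 2, a stress-induced protein that senses leucine and restrains mTORC1. Sesn2 stood at 5.69 and 3.75 FPKM in the control pair and 4.55 and 21.0 FPKM in the siRNA pair, from 336, 246, 185 and 869 implied fragments. Again siRNA replicate 1 lay between the controls, and siRNA replicate 2 was 3.69 times the higher control. A log2 difference of 0.97 over both libraries (SE 1.04, limma adjusted p = 0.830) was made up of -0.021 in siRNA replicate 1 and 1.96 in siRNA replicate 2. In siRNA replicate 2, 1053 tested genes (8.50%) lay further above the controls, so Sesn2 stood out less than Atf4 and Trib3. As for Trib3, no p-value is given for siRNA replicate 2 alone.

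Chac1 encodes an enzyme that degrades glutathione and is among the transcripts most strongly induced by ATF4 in many cells. It lies on chromosome 2 from 119351229 to 119354381 on the plus strand (ENSMUSG00000027313.3). It stood at 0.0373 and 0.0331 FPKM in controls, which is 1 implied fragment each, and was listed at 0 in both siRNA libraries. A fall was not detectable at this depth, and the gene was not tested. No rise was seen in either siRNA library, also not in siRNA replicate 2, where Atf4 was at 234 FPKM. Atf5 at 2.52 FPKM rested on about 42 implied fragments there, so a rise of Chac1 to such a level would have been measurable.

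The promoters of the effectors were searched for the 8-base core of the C/EBP-ATF response element, TGATGNAA, on both strands, since this element is the known binding site of ATF4 with its partners. RefSeq windows (GRCm38.p6) from 250 bases before to 50 bases after a transcription start were available for all 10 genes, as 12 windows. The core was found in 3 of the genes, Chac1, Asns and Trib3, and in 3.97% of all 32851 windows. The 30 bases around each are shown on the strand of the gene, with the core in capitals, because these effectors are textbook targets of ATF4 and had unlike levels here.
Chac1: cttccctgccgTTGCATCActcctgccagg
Asns: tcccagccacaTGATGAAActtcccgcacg
Trib3: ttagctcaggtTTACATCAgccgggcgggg
The starts are those of RefSeq (119351242 for Chac1, 7693209 for Asns and 152344060 for Trib3), and they differ from the gene starts of the tables. The Chac1 stretch lies at chr2:119351038-119351067, with the core on the opposite strand and its first base 193 bases before the RefSeq start and 180 before that of the tables. The Asns stretch lies at chr6:7693214-7693243, with the core on the strand of the gene and its first base 23 bases before the RefSeq start, but at position 23 inside the gene as the tables bound it. The Trib3 stretch lies at chr2:152344028-152344057, with the core on the opposite strand and its first base at position 15 after the RefSeq start, but 14 bases before that of the tables. In siRNA replicate 2 Trib3 lay above both controls (18.0 FPKM), Asns below both (0.0423 FPKM), and Chac1 was listed at 0. A match is a description of the letters, and other windows or spellings of the element were not searched.

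Among the metabolic effectors, Asns encodes asparagine synthetase, a classical target of amino acid limitation. It lies on chromosome 6 from 7675169 to 7693254 on the minus strand (ENSMUSG00000029752.12). Its level was 0.517 and 1.96 FPKM in the control pair and 0.805 and 0.0423 FPKM in the siRNA pair, from about 1.6, 25 and 2.1 implied fragments and under 1 in siRNA replicate 2. Control replicate 2 alone reached 1 FPKM, so the gene was not tested. The values of siRNA replicate 1 lay between the controls.

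Phgdh, Psat1 and Psph encode the consecutive enzymes that make serine from a glycolytic intermediate, and their RNA levels were far from equal. Psat1 was at 58.2 and 60.5 FPKM in controls, against 1.98 and 0.947 FPKM for Phgdh, the entry enzyme. The level of Psat1 was 29.4 and 63.8 times that of Phgdh in the controls and 17.0 times in siRNA replicate 1. Phgdh rested there on about 20, 8.2 and 8.5 implied fragments, so these ratios are rough and their differences are not read. In siRNA replicate 2 Phgdh rested on less than 1 implied fragment and no ratio is given. Psph stood between them, at 5.92 and 16.8 FPKM in controls.

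Psat1, the aminotransferase of the pathway, lies on chromosome 19 from 15904678 to 15947337 on the minus strand (ENSMUSG00000024640.9). It stood at 26.0 FPKM in siRNA replicate 1 and 79.9 FPKM in siRNA replicate 2, 1 below and 1 above the narrow range of the controls. On the log2 scale siRNA replicate 1 differed by -1.16 and siRNA replicate 2 by 0.42, with -0.37 over both (SE 0.75, limma adjusted p = 0.917). The sign over both libraries turned with the scaling, to 0.056 after rescaling to TPM, 0.012 by median-of-ratios scaling and 0.090 by quantile normalization. Without siRNA replicate 2 the difference was -1.16.

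Psph, the phosphatase that releases serine, lies on chromosome 5 from 129765558 to 129787449 on the minus strand (ENSMUSG00000029446.14). It stood at 1.65 and 0.116 FPKM in siRNA replicates 1 and 2, from about 5.7 and 0.1 implied fragments against 56 and 93 in the controls. The siRNA pair lay below the control pair without overlap, as in 30.0% of all genes tested. The siRNA mean was 0.883 ± 1.09 FPKM (SD, n = 2) against 11.4 ± 7.73 FPKM (SD, n = 2) in the controls. A log2 difference of -2.69 (SE 1.05) came with a limma unadjusted p = 0.0339 and adjusted p = 0.745. An exact two-sided permutation test over the libraries gave p = 0.333, the smallest that 2 against 2 libraries allow. The difference was lower with siRNA under all 11 alternatives run, from -4.04 to -2.01. In the alternatives that kept all 4 libraries, Psph did not pass the limma threshold. In siRNA replicate 1 the difference was -2.07, where 287 tested genes (2.32%) had a lower one, and in siRNA replicate 2 it was -3.32, where 773 (6.24%) had. The value of -3.32 is near the lowest that log2(FPKM + 1) allows at the control level of Psph, so its rank there is not read. Psph overlaps the start of Cct6a on the opposite strand, which stood at 97.3 and 57.1 FPKM in the control pair and 42.3 and 86.6 FPKM in the siRNA pair.

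Phgdh lies on chromosome 3 from 98313170 to 98339990 on the minus strand (ENSMUSG00000053398.11). It stood at 1.53 FPKM in siRNA replicate 1, between the controls, and at 0.0899 FPKM in siRNA replicate 2, below both. The log2 difference was -0.54 (SE 0.78, limma adjusted p = 0.880), and its sign turned to 0.11 with quantile normalization and to 0.071 without siRNA replicate 2. At 20 implied fragments or fewer in every library a moderate change of Phgdh was not detectable at this depth.

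**Figure D2:**
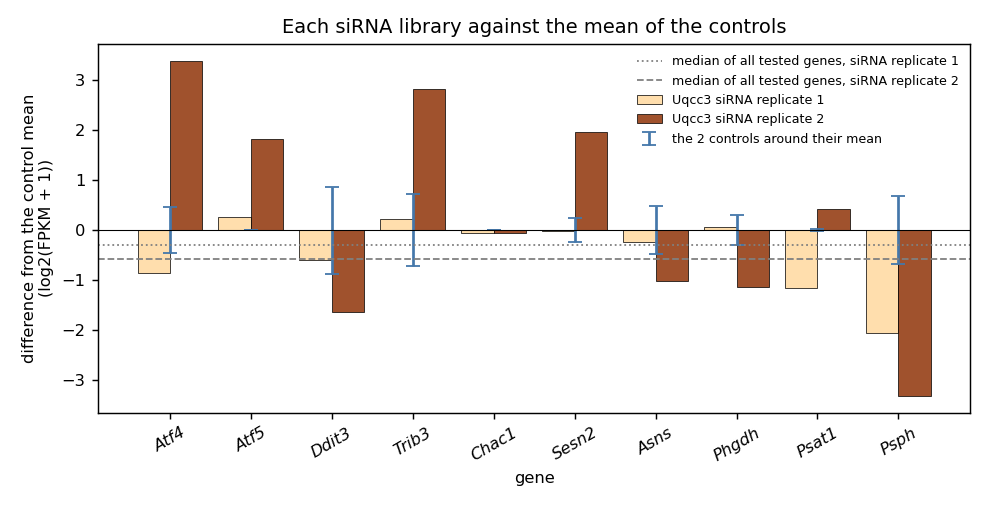
Difference of each siRNA library from the mean of the 2 controls, in log2(FPKM + 1), for the 10 effectors along the horizontal axis. Light bars are siRNA replicate 1 and dark bars siRNA replicate 2, blue brackets span the 2 controls around their mean, and the grey lines are the medians of all tested genes (-0.30 and -0.57). Atf4 points down in replicate 1 (-0.85) and up in replicate 2 (3.39), whereas Psph points down in both (-2.07 and -3.32).

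Read against all genes, the effectors were not set apart in their counts. In 1 of the 7 tested effectors (Psph) and in 30.0% of all genes tested, the siRNA pair lay below the control pair without overlap. The siRNA pair lay above in 0 of 7 effectors and in 8.60% of all genes. The median log2 difference was -0.37 over the 7 effectors and -0.39 over all genes. Each of the 7 had at least 1 library of 1 FPKM or more in each group. After rescaling to TPM the same 2 counts stood beside 21.4% and 13.2% of all genes. After median-of-ratios scaling or quantile normalization Sesn2 lay above both controls in both siRNA libraries, beside 16.0% and 16.5% of all genes, and Psph stayed below, beside 19.8% and 18.7%. The scalings moved the median of all genes from -0.39 to -0.085 (TPM), -0.084 (median-of-ratios) and 0.012 (quantile). Relative to the median of all genes, Atf4 stood 1.66 higher in FPKM and 1.71 higher after quantile normalization, both with the 2 siRNA libraries.

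The 2 siRNA libraries differed in which effectors left the range of the controls. In siRNA replicate 1, 3 of 7 lay below both controls (Atf4, Psat1 and Psph) beside 48.3% of all genes, and 0 above beside 20.6%. In siRNA replicate 2, 3 lay below (Ddit3, Phgdh and Psph) beside 50.5% of all genes, and 4 above (Atf4, Trib3, Sesn2 and Psat1) beside 32.0%. The median of the effectors was -0.59 and 0.42 in siRNA replicates 1 and 2, where that of all genes was -0.30 and -0.57. The longest transcripts of Atf4, Trib3, Sesn2, Psat1 and Psph have 2019 to 3475 bases, and the median of the 4303 tested genes of 2000 to 4000 bases was -0.30 in siRNA replicate 2. Psat1 has 7 annotated transcripts and Psph 8, and the longest of Psph has only 2 exons. Which of them were expressed is not known here, so the length class of these 2 genes is uncertain. The longest transcript of Phgdh has 1893 bases, and the median over the 2392 tested genes of 1000 to 2000 bases was -1.04 in siRNA replicate 2. Phgdh differed by -1.14 there, at 0.0899 FPKM. With its low control values this is near the lowest difference that log2(FPKM + 1) allows, so the closeness of the 2 values is not read. The difference between the 2 siRNA libraries was not tested.

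**Figure D3:**
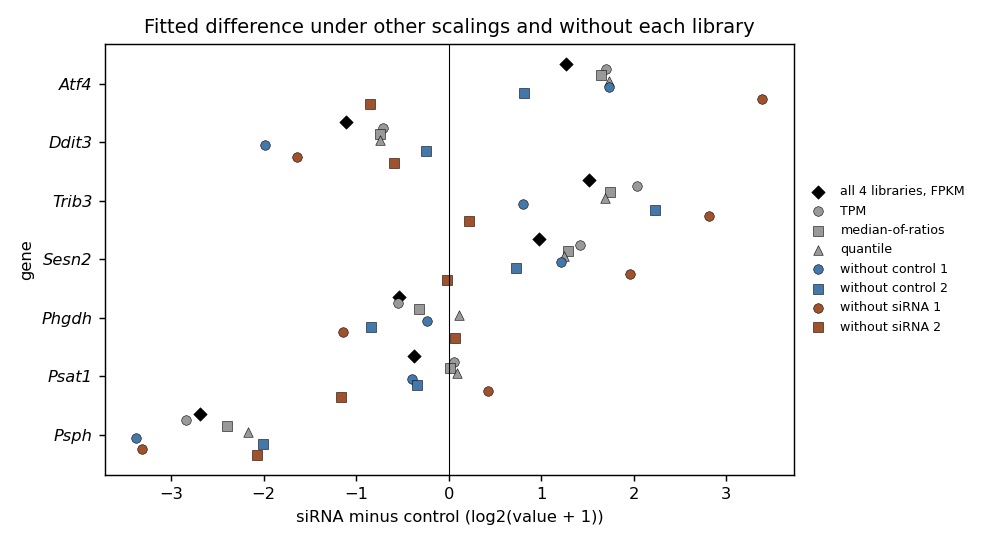
Fitted difference of siRNA minus control on the horizontal axis, in log2(value + 1), for the 7 tested effectors on the vertical axis. Black diamonds are all 4 libraries in FPKM, grey points other scalings, blue points fits without 1 control and brown points fits without 1 siRNA library. The points of Atf4 run from -0.85 to 3.39 and those of Psph all lie at -2.01 or lower.

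The other genes of the pathway are given list by list, with the count of tested genes in which the siRNA pair lay below or above the control pair without overlap. Over all genes these shares were 30.0% below and 8.60% above, and the median difference was -0.39, with -0.30 for siRNA replicate 1 and -0.57 for replicate 2. The upstream part of the pathway was measured through 13 genes for the eIF2 alpha kinases, the mitochondrial relay and the phosphatase subunits, of which 10 were tested. None passed in limma, and the siRNA pair lay below the control pair in 1 and above it in 0. The median was 0.061, with -0.26 for siRNA replicate 1 and 0.53 for replicate 2. Ppp1r15a and Ppp1r15b, the subunits that target phosphatase to eIF2, were the most abundant with Eif2ak3, the endoplasmic reticulum kinase PERK. Ppp1r15b stood at 10.8 and 5.84 FPKM in the control pair and 6.68 and 54.5 FPKM in the siRNA pair. Ppp1r15a was at 25.6 and 19.7 FPKM against 18.1 and 50.6 FPKM, and Eif2ak3 at 5.30 and 14.9 FPKM against 11.0 and 35.0 FPKM. All 3 were highest in siRNA replicate 2 and within or just below the controls in siRNA replicate 1. Oma1, the mitochondrial protease that starts the relay, stood at 5.75 and 0 FPKM in the control pair and 2.61 and 12.4 FPKM in the siRNA pair. The next gene of the relay, 0610009O20Rik (Dele1), was at 0 to 0.035 FPKM in all 4 libraries and was not tested. Eif2ak1, the kinase of the relay, overlapped between the groups, at 8.04 and 4.47 FPKM against 3.29 and 6.70 FPKM.

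The list of eIF2, whose alpha subunit the kinases phosphorylate, and of its exchange factor eIF2B also held Eif5 and Eif2a, which are subunits of neither. Over its 10 tested genes the median was -0.80, with -0.77 for siRNA replicate 1 and -1.26 for replicate 2, and none passed in limma (smallest adjusted p = 0.745). The siRNA pair lay below the control pair in 6 of 10, beside 30.0% of all genes, and above it in 0. Among the 8 tested subunits of the complexes it lay below in 4 and above in 0, with a median of -0.69. Of these 8, the Y-linked Eif2s3y stood at 16.7 and 0 FPKM in the control pair and 3.06 and 0.635 FPKM in the siRNA pair. Its X-linked copy Eif2s3x did not pass the filter. Eif5, which acts with eIF2 in start codon selection, stood at 605 and 548 FPKM in the control pair and 236 and 222 FPKM in the siRNA pair. Eif2b1 stood at 245 and 172 FPKM against 130 and 24.5 FPKM, with both siRNA libraries below both controls. Eif2s2, the beta subunit, was at 143 and 131 FPKM against 76.5 and 299 FPKM, so its siRNA libraries lay on both sides of the controls.

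Of the partner factors, 6 of 12 were tested, with the siRNA pair below the controls in 1, above in 1 and a median of -0.37 (0.32 for siRNA replicate 1 and -0.61 for replicate 2). Nupr1, a stress-induced chromatin protein, stood at 72.4 and 106 FPKM in the control pair and 176 and 5.12 FPKM in the siRNA pair. Cebpg, which pairs with ATF4, was at 26.3 and 20.8 FPKM against 18.7 and 62.8 FPKM, and Atf2 was within 84.0 to 130 FPKM in all 4. Nupr1 was highest in siRNA replicate 1 and lowest in siRNA replicate 2, and Cebpg the reverse. Atf3, a factor that ATF4 induces, was listed at 0 in all 4 libraries.

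Amino acid transporters gave 5 tested genes of 10 found, with 2 below and 1 above. Their median of 0.38 joined opposite signs, -0.61 for siRNA replicate 1 and 1.37 for replicate 2. Slc3a2, the heavy chain shared by several transporters, stood at 42.1 and 51.9 FPKM in the control pair and 18.6 and 22.6 FPKM in the siRNA pair. Slc1a5, a glutamine carrier, was at 5.94 and 1.98 FPKM against 3.12 and 17.9 FPKM, and Slc6a9, a glycine carrier, at 3.16 and 0.569 FPKM against 0.677 and 5.59 FPKM. Slc3a2 was low in both siRNA libraries, whereas Slc1a5 and Slc6a9 were highest in siRNA replicate 2.

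Enzymes of one-carbon and amino acid metabolism gave 11 tested genes of 17, with 3 below, 0 above and a median of -0.33 (-0.39 for siRNA replicate 1 and -0.74 for replicate 2). Glul, glutamine synthetase, stood at 682 and 557 FPKM in the control pair and 338 and 58.4 FPKM in the siRNA pair, lower in both. Cth, of cysteine synthesis, was at 95.8 and 116 FPKM against 158 and 26.3 FPKM, and Mthfd2, of the mitochondrial folate cycle, at 40.7 and 51.8 FPKM against 31.8 and 67.7 FPKM. For the tRNA synthetases 12 of 12 were tested, with 3 below and 0 above. Their median was -0.026, with -0.59 for siRNA replicate 1 and 0.16 for replicate 2. Eprs was at 81.2 and 62.5 FPKM against 12.2 and 8.57 FPKM, while Iars was at 23.9 and 39.0 FPKM against 21.6 and 97.9 FPKM and Nars overlapped at 32.2 to 59.7 FPKM. In siRNA replicate 1, 9 of the 12 synthetases lay below both controls (48.3% of all genes) and 1 above (20.6%). In siRNA replicate 2, 3 lay below (50.5%) and 5 above (32.0%). Over both libraries the synthetases, too, did not shift as 1 block.

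Genes of the other unfolded protein response arms gave 14 tested of 16, with 3 below and 0 above. Their median of 0.35 joined -0.60 in siRNA replicate 1, where 10 of 14 lay below both controls (48.3% of all genes), and 0.63 in siRNA replicate 2, where 7 lay above (32.0% of all genes). Dnajb9, a chaperone of the endoplasmic reticulum, stood at 789 and 814 FPKM in the control pair and 412 and 210.0 FPKM in the siRNA pair. Hspa5, the main chaperone there, was at 26.9 and 24.0 FPKM against 16.1 and 118 FPKM, and Creld2 at 50.3 and 78.1 FPKM against 48.0 and 67.2 FPKM. Mitochondrial chaperones and proteases gave 10 tested of 10, with 4 below, 0 above and a median of -0.37 (-1.01 for siRNA replicate 1 and -0.27 for replicate 2), beside the pooled -0.39 of all genes. Clpx stood at 114 and 63.9 FPKM in the control pair and 34.1 and 66.0 FPKM in the siRNA pair, Hspe1 at 50.8 and 52.7 FPKM against 49.9 and 33.2 FPKM, and Clpp at 38.8 and 56.2 FPKM against 20.5 and 60.2 FPKM. Secreted factors and paralogs gave 8 tested of 12, with 1 below, 0 above and a median of 0.13, although the median over these genes was below 0 in each library, -0.31 for siRNA replicate 1 and -0.27 for siRNA replicate 2. Pmaip1, a BH3-only protein, was at 12.4 and 13.6 FPKM against 26.3 and 6.67 FPKM, and Sesn1 and Sesn3, paralogs of Sesn2, stayed within 1.73 to 5.96 FPKM. Fgf21, a secreted marker of mitochondrial stress, was listed at 0 in all 4 libraries. None of the 86 tested genes of these 9 lists passed in limma, as none of all genes did.

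**Figure D4:**
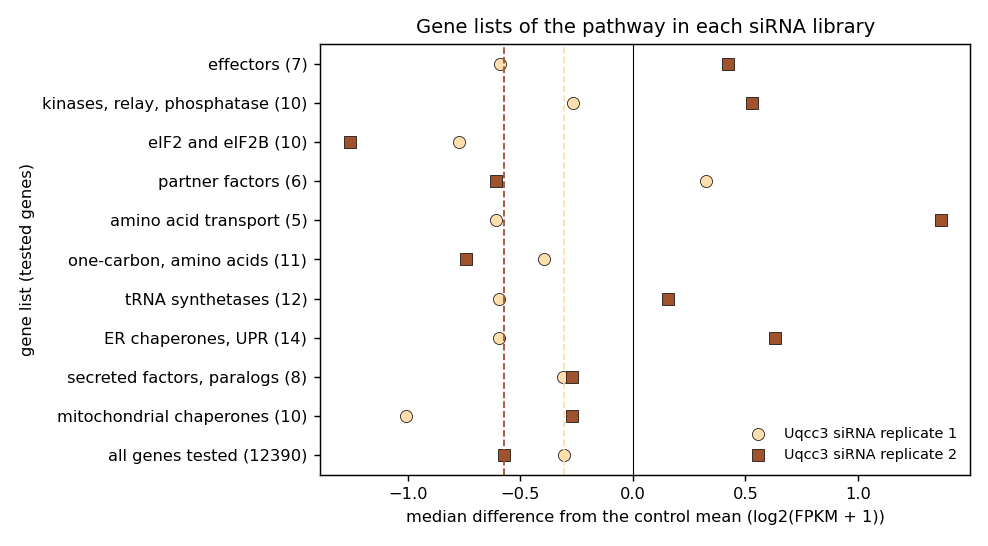
Median difference from the control mean, in log2(FPKM + 1), on the horizontal axis, for the effectors, the 9 other lists of the pathway and all tested genes on the vertical axis, with the number of tested genes in brackets. Circles are siRNA replicate 1, squares siRNA replicate 2, and dashed lines the medians of all tested genes in each (-0.30 and -0.57). The effectors sit at -0.59 and 0.42, amino acid transport is highest in replicate 2 (1.37), and eIF2 and eIF2B lie low in both (-0.77 and -1.26).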

How the data were processed

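Per the file headers, the authors deposited 1 table of FPKM values for each library, with bounds. Named in the submitters' processing notes are STAR 2.7.3a, Cufflinks 2.2.1, Cuffdiff 2.2.1, SAMtools 1.7 and Trim Galore 0.6.5, with mm10 as the build, while no annotation release is stated. Rows that shared an identifier were summed. Coordinates are those of the tables. Transcript lengths are from GENCODE M21, which matched 99.1% of identifiers. No counts were used. The fragments behind a value were implied from its upper bound, as (2 × FPKM / (upper bound - FPKM)) squared, and are approximate for genes with several transcripts. Depth is the median of implied fragments per FPKM and kilobase, over genes with 1 transcript of at least 1000 bases and at least 100 implied fragments. Both cover counting error only, and fragments amplified over 18 and 15 PCR cycles are not separate molecules.

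Tested were the 12390 genes that reached 1 FPKM in 2 or more libraries and whose estimate did not fail. log2(FPKM + 1) was fitted in limma 3.58.1 (R 4.3.3), with the prior variance following abundance. Tests were two-sided, with Benjamini-Hochberg adjustment over all genes tested and a threshold of 0.05. The script was checked on simulated data with the same spread for every gene and no outlying library. That check covers the code and not how the test behaves on libraries like these. Groups follow the treatment label, and replicates were numbered in accession order. The text names the 10 effectors, Uqcc3 and the 3 genes with the highest mean FPKM in each of 9 pathway lists. Oma1, 0610009O20Rik, Eif2ak1, Eif2s3y, Eif2s3x, Atf3, Fgf21, Nup62, Mars, Gm4189, Cct6a and the stage markers were named after their values were seen. The members and lists were chosen with earlier results of these data known. The 11 alternatives vary the pseudocount, filter, scaling and trend, and leave out each library.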

Additional observations from a re-analysis of the deposited data

How the results depend on the processing

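Of the 7 tested effectors, Ddit3, Trib3 and Psph kept the direction of their difference under every alternative run. Psat1 turned to 0.056 with TPM, 0.012 with median-of-ratios scaling, 0.090 with quantile normalization and 0.42 without siRNA replicate 1. Phgdh turned to 0.11 with quantile normalization and, like Atf4 and Sesn2, changed sign without siRNA replicate 2. The cause was not tested. The count past the limma threshold was 0 in every alternative that kept all 4 libraries. For fits without 1 library, which leave a lone sample in a group, only the differences are given. Without a filter on low values, effectors below and above both controls numbered 2 and 1, as Chac1 and Atf5 then entered. In the controls Chac1 rested on 1 implied fragment each and Atf5 was listed at 0. The share of all genes is not given for that setting, so nothing is read from these counts. With median-of-ratios scaling or quantile normalization 1 lay above, beside 16.0% and 16.5% of all genes. When 1 library was left out, which leaves fewer values to overlap, the counts were 2 to 3 below and 0 to 4 above. Of all genes, 41.9% to 50.5% then lay below and 16.4% to 32.0% above. The median over the effectors then ran from -0.59 to 0.42, the highest without siRNA replicate 1. With 1 library left out, the differences ran from -0.85 to 3.39 for Atf4 (3.39 without siRNA replicate 1) and -0.021 to 1.96 for Sesn2. They ran from -1.16 to 0.42 for Psat1 and -1.14 to 0.071 for Phgdh. In a fit without 1 library the lone sample of its group is assumed to vary like the other group. No paired analysis was possible because the labels carry no replicate numbers. Atf5, Asns and Chac1 were fitted only with no filter, and none passed (limma adjusted p = 0.722, 0.740 and 0.725). Depth limited the reading of a fall most for Chac1, Asns and Phgdh, at 25 implied fragments or fewer in each library.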
